A study of Mus musculus with 6 samples.

Results

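The genes described here encode parts of Mallory-Denk bodies, the protein aggregates that form in injured hepatocytes. They are 9 genes chosen by symbol for what is known of these bodies, with no measured value in the rule: the keratins Krt8 and Krt18, the adaptor Sqstm1, the ubiquitin gene Ubb, the crosslinking enzyme Tgm2 and the chaperones Hspb1, Hspa8, Hspa1a and Hspa1b. All 9 were found among the 24532 genes of the deposited table, and all 9 were among the 14415 genes that passed the filter on low counts. The libraries came from livers of 6 wild-type C57BL/6 mice, all fed DDC (3,5-diethoxycarbonyl-1,4-dihydrocollidine), a porphyrinogenic compound, at 0.1% of the diet over 4 weeks. During weeks 3 and 4 of feeding, 3 of the mice received rhCYGB, recombinant human cytoglobin, at 2 mg/kg per injection and 2 injections a week. The other mice, also 3, received its vehicle, normal saline. All were killed 2 days after their final injection. The labels name each mouse by a number of its own and give no age. Because both groups ate DDC, the comparison addresses rhCYGB on top of DDC injury and not DDC itself. The samples are whole liver, in which fewer cells of a type and less RNA per cell cannot be told apart.

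Hepatocytes make a single pair of keratins, keratin 8 and keratin 18, which in these cells assemble only with each other. DDC is a long-used means of producing Mallory-Denk bodies in mice: keratin 8 in excess over keratin 18 misfolds, is crosslinked by transglutaminase 2, and is decorated with ubiquitin, p62 (the product of Sqstm1) and heat shock proteins. Heat shock proteins hold or refold such proteins, and p62 carries ubiquitin-tagged cargo to autophagy.

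With rhCYGB, the inducible HSP70 genes Hspa1a and Hspa1b were lower, at 0.342 and 0.341 times the vehicle mean, and Tgm2 was lower by a smaller step. Krt8, Krt18 and Sqstm1 differed by less than their spread on counts scaled to a common library size. Hspb1, Ubb and Hspa8 were higher on that scale, with log2 fold changes of 1.10, 0.52 and 0.32 and groups that overlapped. On the per-length scale described below, Krt8, Krt18, Ubb, Hspa8 and Hspa1b were lower in every rhCYGB liver than in every vehicle liver. So were 12.7% of all genes. Relative to the median log2 fold change of all genes on that scale, Ubb was at 0.25 and Hspa8 at 0.02. None of the 9 genes passed the test across all genes. By edgeR's quasi-likelihood test with Benjamini-Hochberg adjustment, 0 of the 9 genes had an adjusted p under 0.05, against 0 of 14415 genes tested (0%), and the smallest adjusted p was 0.523 among the 9 as well as among all genes. At an unadjusted p under 0.05 there were 2 of the 9, Hspa1a and Hspa1b, both lower, beside 8.12% of all genes in either direction, 6.06% higher and 2.06% lower. DESeq2 called 65 of the 1558 genes its own filtering left (4.17%, of which 0.128% lower) and 0 of the 9, of which 3 (Hspb1, Hspa1a and Hspa1b) got no adjusted p. Limma-voom with sample quality weights called 4323 genes (30%, with 16.1% higher and 13.9% lower) and 4 of the 9, namely Hspa1a and Hspa1b lower (adjusted p = 0.0330 and 0.0189), Tgm2 lower (0.0269) and Ubb higher (0.0263).

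The libraries held between 58422095 and 72431373 estimated counts. The rhCYGB libraries differed among themselves, with TMM factors of 1.18 in replicate 1 and 0.744 and 0.630 in replicates 2 and 3, against 1.45, 1.07 and 1.18 in vehicle replicates 1 to 3. Without rhCYGB replicate 1 edgeR called 3391 of 14647 genes (23.2%). Those calls include 3 of the 9 genes, given below with their values. Libraries also differed with transcript length, with slopes of 0.24, -0.35 and -0.33 log2 units per doubling of length in rhCYGB replicates 1 to 3 and 0.40, -0.02 and 0.06 in vehicle replicates 1 to 3. The scale therefore matters. Counts scaled to a common library size by TMM (CPM) put the median log2 fold change of all genes at -0.06, whereas log2(TPM + 1), a per-length scale whose sum is fixed in each library, put it at -0.51. Fold changes below are log2 of rhCYGB over vehicle on the CPM scale unless TPM is named. The hepatocyte markers, all 9 of them tested, summed to between 127294 and 244717 CPM in rhCYGB livers and between 89075 and 151052 CPM in vehicle livers, with Alb and Trf highest, and 0 passed the test. On the CPM scale all 9 were higher with rhCYGB (median log2 fold change 0.62), whereas on log2(TPM + 1) 3 were higher and 6 lower (median -0.16). T and B cell markers summed to at most 4.17 CPM in rhCYGB livers and 2.95 CPM in vehicle livers, with Cd3g and Cd79b highest, and 5 of these 8 genes passed the filter on low counts. Erythroid markers, led by Hba-a2 and Hbb-bs, ranged from 159 to 765 CPM in rhCYGB livers and from 133 to 975 CPM in vehicle livers.

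The sequences upstream of 3 of the chaperone genes are shown because all hold a heat shock element, while Hspa1a and Hspa1b were lower and Hspb1 was higher with rhCYGB, with 0 of them past the test. RefSeq on GRCm38.p6, the same assembly as mm10, gives such windows for 7 of the 9 genes, all but Tgm2 and Hspa8. Each sequence below is the 250 bases before the annotated start, on the gene's own strand. Capitals mark the letters GAANNTTC or TTCNNGAA, each its own reverse complement, which is the binding element of heat shock factors in its shortest form.
Hspa1a (chr17:34972157-34972406, minus strand): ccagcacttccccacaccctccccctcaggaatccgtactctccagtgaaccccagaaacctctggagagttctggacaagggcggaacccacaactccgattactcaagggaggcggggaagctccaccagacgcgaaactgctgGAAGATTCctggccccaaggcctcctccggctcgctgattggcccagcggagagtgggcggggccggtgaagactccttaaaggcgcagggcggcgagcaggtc
Hspa1b (chr17:34959239-34959488, minus strand): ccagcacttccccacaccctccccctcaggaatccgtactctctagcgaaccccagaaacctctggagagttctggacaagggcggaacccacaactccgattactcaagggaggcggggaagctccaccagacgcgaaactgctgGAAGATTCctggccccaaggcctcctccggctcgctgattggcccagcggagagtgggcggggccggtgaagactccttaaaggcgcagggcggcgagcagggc
Hspb1 (chr5:135887669-135887918, plus strand): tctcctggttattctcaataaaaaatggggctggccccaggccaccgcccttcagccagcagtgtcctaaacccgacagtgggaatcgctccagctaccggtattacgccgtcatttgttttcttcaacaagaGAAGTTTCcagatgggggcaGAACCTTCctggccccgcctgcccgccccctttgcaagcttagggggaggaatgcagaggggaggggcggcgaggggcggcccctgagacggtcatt
The Hspa1a and Hspa1b windows differed at 3 of 250 bases (98.8% identical), and both hold the element once, with its first base 104 bases before the start. Hspb1 holds it 2 times, at 117 and 97 bases before the start. Of 32536 such windows in the whole table, 12.9% hold these letters, and 0.470% hold the longer element of 3 units, which none of the 7 genes' windows has. A match is a description of letters and not a shown binding site.

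On the per-length scale the 9 genes covered a wide range of levels. Averaged over the 6 libraries, Krt8 and Krt18 stood at 1567 and 1562 TPM, followed by Hspa8 at 1107, Sqstm1 at 393, Tgm2 at 249.99, Ubb at 178, Hspb1 at 24.6, Hspa1b at 4.80 and Hspa1a at 2.30 TPM. The keratins were thus above 99.5% of tested genes, while Hspa1a was above only 28.5% of them. The order of neighbours held in 6 of 6 libraries for Hspa8 over Sqstm1, Sqstm1 over Tgm2, Ubb over Hspb1, Hspb1 over Hspa1b and Hspa1b over Hspa1a. Krt8 was above Krt18 in 2 of 6 libraries, Krt18 above Hspa8 in 5 and Tgm2 above Ubb in 4, so these orders did not hold throughout. Tgm2 was below Ubb in rhCYGB replicates 2 and 3 and above it in the other libraries. Differences between neighbours were not tested. The ranges over the 6 libraries were apart for Hspa8 over Sqstm1, Ubb over Hspb1 and Hspb1 over Hspa1b, and overlapped for the other neighbours.

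**Figure D1:**
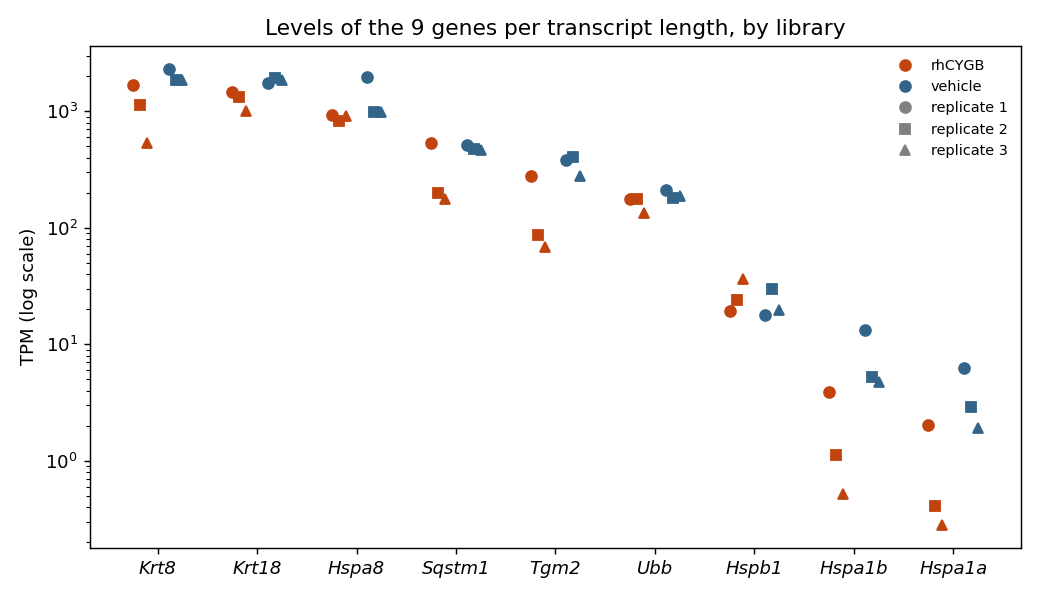
Level of each gene in TPM (a per-length share of the library, vertical axis, log scale) for every library; orange marks are rhCYGB livers, blue marks vehicle livers, and marker shapes give the replicate. The keratins and Hspa8 lie near 1000 TPM and Hspa1a and Hspa1b at the bottom, where rhCYGB replicates 2 and 3 lie lowest.

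Krt8 encodes the type II keratin of the hepatocyte pair (gene 16691, chromosome 15, 101996711 to 102004342, 9 exons, minus strand). It was at 1415, 1895 and 1054 CPM in rhCYGB livers and at 1494, 1892 and 1683 CPM in vehicle livers. The groups overlapped on this scale, with the lowest value in rhCYGB replicate 3 and the highest 2 values nearly equal in rhCYGB replicate 2 and vehicle replicate 2. The log2 fold change was -0.22 (SE 0.37, edgeR adjusted p = 0.764). In TPM, Krt8 was at 1692, 1127 and 536 in rhCYGB livers and at 2324, 1858 and 1865 in vehicle livers. There every rhCYGB liver was below every vehicle liver, and limma on log2(TPM + 1) gave -0.99 (SE 0.40, adjusted p = 0.371), or -0.48 relative to the median of all genes.

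Krt18, the type I partner, lies 23874 bases from Krt8 on the same chromosome (gene 16668, chromosome 15, 102028216 to 102032026, 7 exons, plus strand). Its CPM were 954, 1723 and 1524 in rhCYGB livers and 879, 1534 and 1312 in vehicle livers, overlapping throughout. Replicate 1 was the lowest library in both groups. The log2 fold change was 0.17 (SE 0.40, edgeR adjusted p = 0.822). It had the opposite sign on log2(TPM + 1), at -0.57 (SE 0.22, limma adjusted p = 0.371), although relative to the median of all genes that is only -0.06. In TPM, Krt18 was at 1471, 1321 and 999.7 in rhCYGB livers and at 1764, 1942 and 1876 in vehicle livers, again with no overlap. Over the 9 genes, 5 were lower in every rhCYGB liver than in every vehicle liver in TPM (Krt8, Krt18, Ubb, Hspa8 and Hspa1b), where 12.7% of all genes were lower in this way and 1.33% higher. There were 3 in CPM, also lower (Tgm2, Hspa1a and Hspa1b), where 7.38% of all genes were lower and 6.02% higher.

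A ratio of 2 genes within a library does not depend on how libraries are scaled, but it can carry the length trend (Krt8 has 1805 bases and Krt18 1400), whose part was not tested. The ratio of Krt8 to Krt18 in TPM was 1.15, 0.853 and 0.536 in rhCYGB livers and 1.32, 0.957 and 0.995 in vehicle livers. Replicate 1 had the highest ratio in each group, and rhCYGB replicate 3 had the lowest of all. The means were 0.846 ± 0.307 in rhCYGB livers and 1.09 ± 0.198 in vehicle livers (SD, n = 3 each), a log2 difference of -0.42 that was within the spread (two-sided exact permutation p = 0.4, adjusted over 3 ratios 0.6). With 3 libraries a group, 0.1 is the smallest p this test can give.

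**Figure D2:**
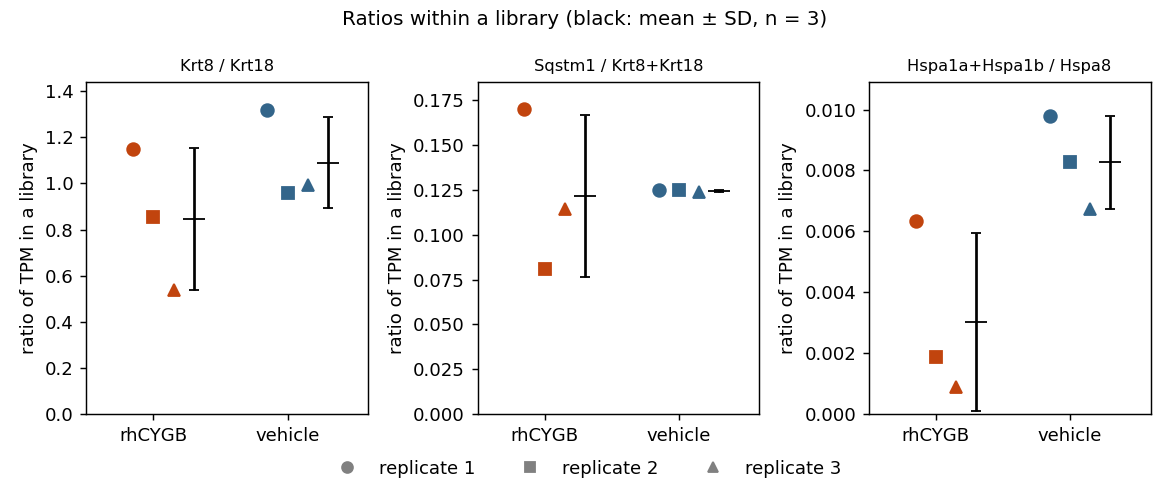
Ratios of TPM within each library for Krt8 to Krt18, Sqstm1 to the sum of the keratins, and Hspa1a plus Hspa1b to Hspa8, with rhCYGB livers on the left and vehicle livers on the right of each panel; black marks are mean ± SD of 3 livers. Only the HSP70 ratio separates the groups, from 0.000883 to 0.00635 in rhCYGB livers and from 0.00672 to 0.00978 in vehicle livers.

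The keratins were read beside bile duct cells, which also make them. Of 10 bile duct markers 7 were lower and 3 higher with rhCYGB (median log2 fold change -0.23, and -0.75 with all 10 lower on log2(TPM + 1)), and their summed level was between 229 and 614 CPM in rhCYGB livers and between 976 and 1092 CPM in vehicle livers. Most of that sum was Spp1, with means of 318 ± 215 CPM in rhCYGB livers and 921 ± 46.3 CPM in vehicle livers (SD, n = 3 each). The bile duct keratin Krt19 averaged 31.7 ± 15.9 CPM in rhCYGB livers and 20.7 ± 1.65 CPM in vehicle livers, with a log2 fold change of 0.62 that was -0.29 on log2(TPM + 1). The part of bile duct cells in the keratin values was not tested. Among 15 other intermediate filament and cytolinker genes, 0 passed in either direction and the median was -0.02 (-0.06 for all genes), or -0.43 on log2(TPM + 1) (-0.51 for all genes). The most abundant were Vim, a filament of mesenchymal cells, at 141 ± 66.3 CPM in rhCYGB livers and 162 ± 65.7 CPM in vehicle livers, the lamin gene Lmna at 179 ± 70.8 CPM in rhCYGB livers and 135 ± 44.7 CPM in vehicle livers, and Plec at 120 ± 64.9 CPM in rhCYGB livers and 78.4 ± 4.17 CPM in vehicle livers. The product of Plec ties keratin filaments to other structures. Lmna and Plec were higher with rhCYGB on this scale and lower on log2(TPM + 1), at -0.27 and -0.23. The smallest p in this list belonged to the lamin gene Lmnb1, at 4.11 ± 3.12 CPM in rhCYGB livers and 9.80 ± 3.09 CPM in vehicle livers (log2 fold change -1.25, SE 0.61, edgeR adjusted p = 0.523).

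Sqstm1 encodes p62, the adaptor between ubiquitin-tagged aggregates and autophagy and a target and activator of NRF2 (gene 18412, chromosome 11, 50200152 to 50210820, minus strand). It was at 497, 367 and 380.2 CPM in rhCYGB livers and at 364, 534 and 462 CPM in vehicle livers. Values of the groups overlapped, and the lowest of all 6 was a vehicle liver. The log2 fold change was -0.13 (SE 0.31, edgeR adjusted p = 0.833). In TPM, rhCYGB replicate 1 was at 537 and replicates 2 and 3 at 197 and 176, against 510.0, 474 and 463 in vehicle livers.

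The amount of Sqstm1 message per keratin message was steady with vehicle and varied with rhCYGB. The ratio of Sqstm1 to the summed keratins was 0.170, 0.0807 and 0.114 in rhCYGB livers and 0.125, 0.125 and 0.124 in vehicle livers. The rhCYGB livers lay on both sides of the vehicle livers, so the mean ratio did not separate the groups (log2 difference -0.10, two-sided exact permutation p = 0.7, adjusted over 3 ratios 0.7). The SD was 0.0451 with rhCYGB and 0.000644 with vehicle, and this difference in spread was not tested. Of the 2 annotated Sqstm1 transcripts, variant 2, the shorter, held 27.9%, 31.6% and 36.8% of the gene's TPM in rhCYGB livers and 24.4%, 28.6% and 26.6% in vehicle livers. These shares overlapped, and neither variant passed the transcript test (edgeR adjusted p = 0.966 for variant 2 and 0.823 for variant 1). Of 19664 transcripts tested, 0 passed by edgeR (0%), and 795 had an unadjusted p under 0.05 (4.04%).

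Genes that work with p62 gave mixed values. Of 11 NRF2 pathway genes 0 passed, with 4 higher and 7 lower and a median of -0.05. It was -0.76 on log2(TPM + 1), where all genes had -0.51. Nqo1, a quinone reductase that is a standard NRF2 target, was at 63.7, 124 and 96.7 CPM in rhCYGB livers and at 29.9, 27.7 and 51.6 CPM in vehicle livers. In CPM every rhCYGB liver was above every vehicle liver, and the log2 fold change was 1.38 (SE 0.36, edgeR adjusted p = 0.523, unadjusted p = 0.00639). In TPM the groups overlapped, at 88.7, 85.6 and 57.2 in rhCYGB livers and 54.2, 31.6 and 66.5 in vehicle livers, and limma on log2(TPM + 1) gave 0.63 (adjusted p = 0.371). Gclc, Srxn1 and Txnrd1, the most abundant members and further enzymes of antioxidant defence, had log2 fold changes of -0.05, 0.45 and -0.23, and their groups overlapped. On log2(TPM + 1) Gclc, Srxn1 and Txnrd1 were at -0.98, -0.34 and -1.13. In the autophagy list of 21 genes 0 passed, 16 were higher and 5 lower, and the median was 0.28 on the CPM scale. On log2(TPM + 1) that median was -0.43, where all genes had -0.51. Map1lc3a, one of the LC3 genes whose products p62 binds, had the smallest p there, with means of 85.8 ± 54.5 CPM in rhCYGB livers and 30.5 ± 7.97 CPM in vehicle livers (log2 fold change 1.49, SE 0.54, edgeR adjusted p = 0.523). It was 0.51 on log2(TPM + 1). The lysosomal membrane genes Lamp1 and Lamp2 and the LC3 relative Gabarap, the most abundant members, had log2 fold changes of -0.11, 0.23 and 0.89. On log2(TPM + 1) Lamp1 was at -0.88, Lamp2 at -0.36 and Gabarap at 0.023.

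Ubb encodes a chain of joined ubiquitin units that is cut into single ubiquitin (gene 22187, chromosome 11, 62551171 to 62553213, plus strand). It was at 121, 237 and 210.4 CPM in rhCYGB livers and at 112, 149 and 136 CPM in vehicle livers. Replicates 2 and 3 of rhCYGB were above all vehicle livers and replicate 1 was not. Albumin (Alb), a hepatocyte marker, was likewise highest in those libraries, at 71843, 141457 and 140609 CPM in rhCYGB livers and at 46059, 76829 and 67740 CPM in vehicle livers, and its part in the Ubb values was not tested. On log2(TPM + 1) the fold change of Alb was 0.12. The log2 fold change of Ubb was 0.52 (SE 0.33, edgeR adjusted p = 0.538). For Ubb the sign was opposite on log2(TPM + 1), at -0.26 (SE 0.22, limma adjusted p = 0.424), although relative to the median of all genes that is 0.25. Its TPM were 178, 176 and 135 in rhCYGB livers and 213, 182 and 187 in vehicle livers, so that the groups were apart, with rhCYGB lower. Variant 1, the longer transcript, held 89.2%, 83.9% and 77.2% of the gene's TPM in rhCYGB livers and 91.7%, 85.6% and 83.6% in vehicle livers. Rps27a, which joins ubiquitin to a ribosomal protein, averaged 577 ± 271 CPM in rhCYGB livers and 303 ± 79.7 CPM in vehicle livers (log2 fold change 0.93, SE 0.47, edgeR adjusted p = 0.523). It was 0.16 with the length trend removed and 0.085 on log2(TPM + 1). Of 13 genes for ubiquitin and aggregate handling 0 passed, 8 were higher and 5 lower on the CPM scale, and the median was 0.10, against -0.59 on log2(TPM + 1), where all genes had -0.51.

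Tgm2 encodes transglutaminase 2, which crosslinks keratin 8 (gene 21817, chromosome 2, 158116405 to 158146392, 13 exons, minus strand). It was at 462, 288 and 263 CPM in rhCYGB livers and at 484, 810 and 490 CPM in vehicle livers. Every rhCYGB liver was below every vehicle liver, but replicate 1 was below the lowest of them by a small margin. The means were 338 ± 109 CPM in rhCYGB livers and 595 ± 186 CPM in vehicle livers (SD, n = 3 each), giving -0.82 on the log2 scale (SE 0.38, edgeR adjusted p = 0.523, unadjusted p = 0.0676). On log2(TPM + 1) it was -1.55 (SE 0.51, limma adjusted p = 0.371), or -1.04 relative to the median of all genes, and in TPM rhCYGB replicate 1, at 281, lay above vehicle replicate 3, at 276. Without rhCYGB replicate 1 the log2 fold change was -1.11 (SE 0.34, edgeR adjusted p = 0.0522). Without vehicle replicate 2 it was -0.53 (SE 0.43, edgeR adjusted p = 0.654), and with any 1 library left out it ran from -1.11 to -0.53.

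Tgm2 is also made by endothelial cells and macrophages, so their markers are given beside it. Endothelial markers were lower in 6 of 8 genes (median -0.40), with a summed level between 56.1 and 139.9 CPM in rhCYGB livers and between 96.5 and 139 CPM in vehicle livers. Their most abundant members, Stab2 and Clec4g, averaged 23.9 ± 5.44 and 35.3 ± 13.6 CPM in rhCYGB livers and 29.2 ± 6.12 and 29.9 ± 4.94 CPM in vehicle livers. Macrophage markers were lower in 5 of 8 genes and higher in 3 (median -0.17). They summed to between 1361 and 2283 CPM in rhCYGB livers and between 1456 and 2431 CPM in vehicle livers, with Lyz2 and Cd5l highest. Stellate cell and fibroblast markers were lower in 9 of 10 genes (median -0.71), at 195 to 644 CPM in all in rhCYGB livers and 784 to 997 CPM in vehicle livers, with Col3a1 and Dcn highest. On log2(TPM + 1) the medians of the endothelial, macrophage and stellate cell lists were -0.86, -0.90 and -1.35, where all genes had -0.51. The part of these cells in the Tgm2 values was not tested. Of the 7 other transglutaminase genes 3 were tested and 3 were at 0 in every library. Tgm1 was at 33.2 ± 7.69 CPM in rhCYGB livers and 20.4 ± 4.49 CPM in vehicle livers (log2 fold change 0.70, but -0.050 on log2(TPM + 1)), and F13b, a carrier subunit of coagulation factor XIII with no crosslinking activity, at 86.7 ± 53.3 CPM in rhCYGB livers and 91.6 ± 2.94 CPM in vehicle livers. F13a1, the active subunit of factor XIII and a gene of macrophages and platelets, was at 3.28, 1.89 and 1.12 CPM in rhCYGB livers and at 7.004, 5.36 and 7.24 CPM in vehicle livers (log2 fold change -1.63, SE 0.44, edgeR adjusted p = 0.523, unadjusted p = 0.00720).

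**Figure D3:**
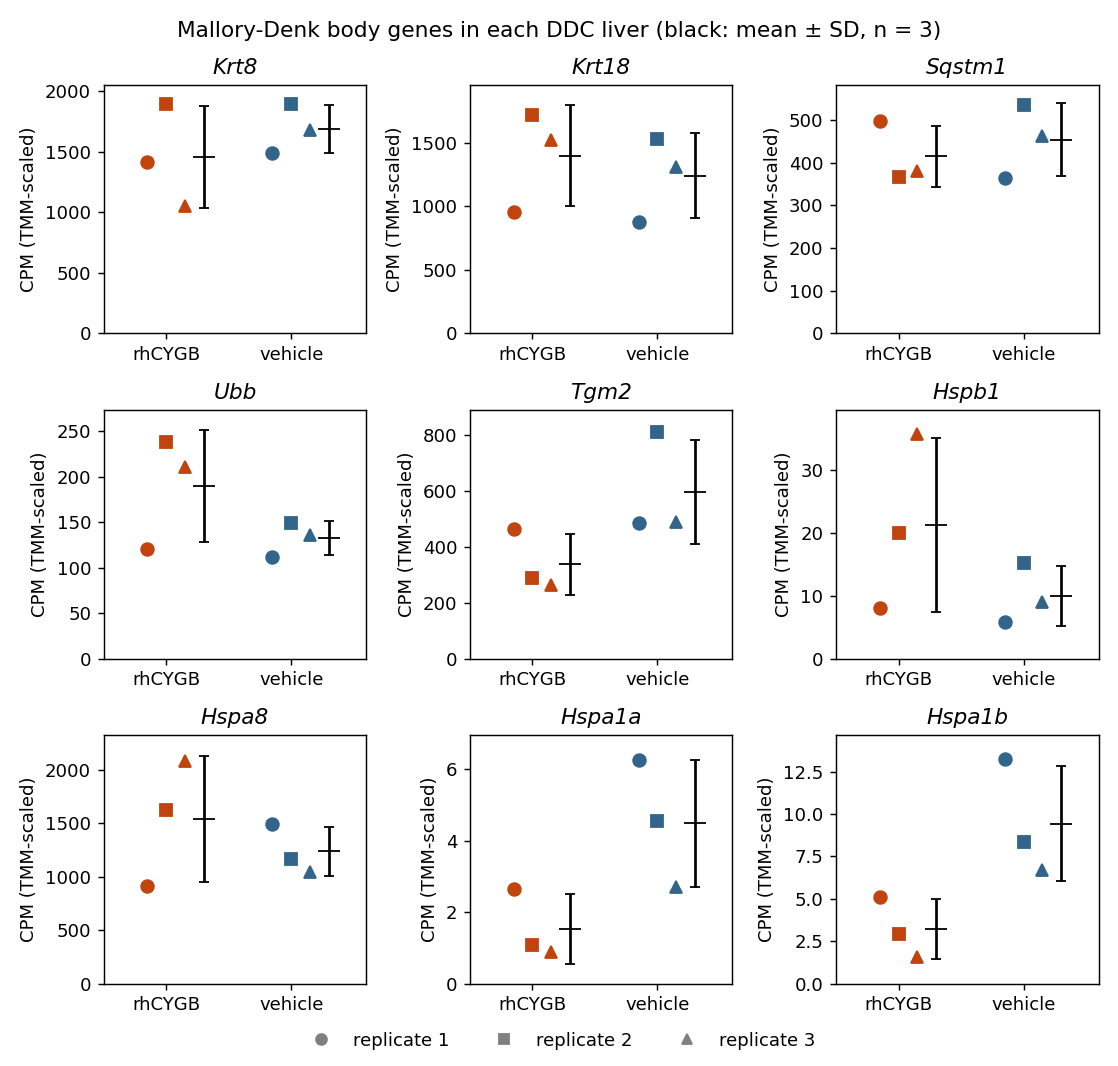
CPM of each of the 9 genes in every liver, with rhCYGB on the left and vehicle on the right of each panel, shapes giving the replicate and black marks the mean ± SD of 3 livers. The groups are apart for Tgm2, Hspa1a and Hspa1b, all lower with rhCYGB, and overlap for the other 6 genes.

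The chaperone genes differed in direction, with Hspa1a and Hspa1b lower and Hspa8 and Hspb1 higher on the CPM scale. Hspa1a and Hspa1b encode nearly identical inducible HSP70 proteins, which are low in resting cells and made after heat or protein damage. Both are single-exon genes on the minus strand of chromosome 17, Hspa1b (gene 15511) at 34956429 to 34959238 and Hspa1a (gene 193740) at 34969359 to 34972156, with 10121 bases between them. Hspa1b was at 5.10, 2.95 and 1.59 CPM in rhCYGB livers and at 13.2, 8.36 and 6.70 CPM in vehicle livers. Hspa1a was at 2.66, 1.08 and 0.877 CPM in rhCYGB livers and at 6.25, 4.54 and 2.69 CPM in vehicle livers. For both genes every rhCYGB liver was below every vehicle liver, with rhCYGB replicate 1 highest among the treated livers and, for Hspa1a, barely below vehicle replicate 3.

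On the log2 scale Hspa1b differed by -1.55 (SE 0.49, edgeR adjusted p = 0.523, unadjusted p = 0.0152) and Hspa1a by -1.54 (SE 0.54, edgeR adjusted p = 0.523, unadjusted p = 0.0246), so the mean in rhCYGB livers was 0.341 and 0.342 times that in vehicle livers. These 2 genes are not independent evidence of each other, because 49.9% of the 100-base stretches of Hspa1b and 48.6% of those of Hspa1a also occur in transcripts of other genes, most of them in each other. In TPM, Hspa1b was at 3.91, 1.13 and 0.520 in rhCYGB livers and at 13.2, 5.27 and 4.76 in vehicle livers. Hspa1a was at 2.04, 0.412 and 0.282 TPM in rhCYGB livers and at 6.26, 2.87 and 1.92 TPM in vehicle livers, where rhCYGB replicate 1 lay just above vehicle replicate 3. The sum of both genes was 595, 217 and 93 estimated counts in rhCYGB livers and 1646, 909 and 659 in vehicle livers. Hspa1a took 34.3%, 26.7% and 35.5% of that sum in rhCYGB livers and 32.1%, 35.2% and 28.7% in vehicle livers. The direction was the same in all 16 other settings tried, at -2.28 to -1.22 for Hspa1b and -2.20 to -1.23 for Hspa1a. Without rhCYGB replicate 1 both passed, lower (edgeR adjusted p = 0.0238 each), as did 10.5% of all genes.

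Hspa8 encodes HSC70, the constitutive relative of HSP70 (gene 15481, chromosome 9, 40801273 to 40805199, 9 exons, plus strand). It was at 913, 1622 and 2081 CPM in rhCYGB livers and at 1491, 1166 and 1046 CPM in vehicle livers, overlapping. Its log2 fold change was 0.32 (SE 0.41, edgeR adjusted p = 0.697), against -0.49 (SE 0.31, limma adjusted p = 0.371) on log2(TPM + 1), which is 0.02 relative to the median of all genes. Its TPM were 936, 828 and 908 in rhCYGB livers and 1991, 982 and 994 in vehicle livers. The groups were apart there, and vehicle replicate 1 stood well above the rest. The ratio of summed Hspa1a and Hspa1b to Hspa8 was 0.00635, 0.00186 and 0.000883 in rhCYGB livers and 0.00978, 0.00828 and 0.00672 in vehicle livers. Every rhCYGB liver was below every vehicle liver, a log2 difference of -1.90 with the smallest p that 3 against 3 allows (two-sided exact permutation p = 0.1, adjusted over 3 ratios 0.3).

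Hspb1 encodes HSP25, the mouse small heat shock protein known as HSP27 in humans, which holds unfolded proteins and binds keratin filaments (gene 15507, chromosome 5, 135887919 to 135889563, 3 exons, plus strand). It was at 8.12, 20.1 and 35.9 CPM in rhCYGB livers and at 5.79, 15.2 and 8.97 CPM in vehicle livers. The groups overlapped, with rhCYGB replicate 1 within the vehicle range. Its log2 fold change was 1.10 (SE 0.58, edgeR adjusted p = 0.523), and it was 0.46 (SE 0.36, adjusted p = 0.545) with the length trend removed. Hspb1 is the shortest of the 9 genes, at 903 bases. Its TPM were 19.4, 23.8 and 36.5 in rhCYGB livers and 17.96, 29.8 and 19.9 in vehicle livers, overlapping. Without rhCYGB replicate 1 it was 1.48 (SE 0.43, edgeR adjusted p = 0.0450) and passed, as did 12.7% of all genes in the higher direction. Without rhCYGB replicate 3 it was 0.50 (SE 0.55, edgeR adjusted p = 0.937), and with any 1 library left out it ran from 0.50 to 1.54.

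**Figure D4:**
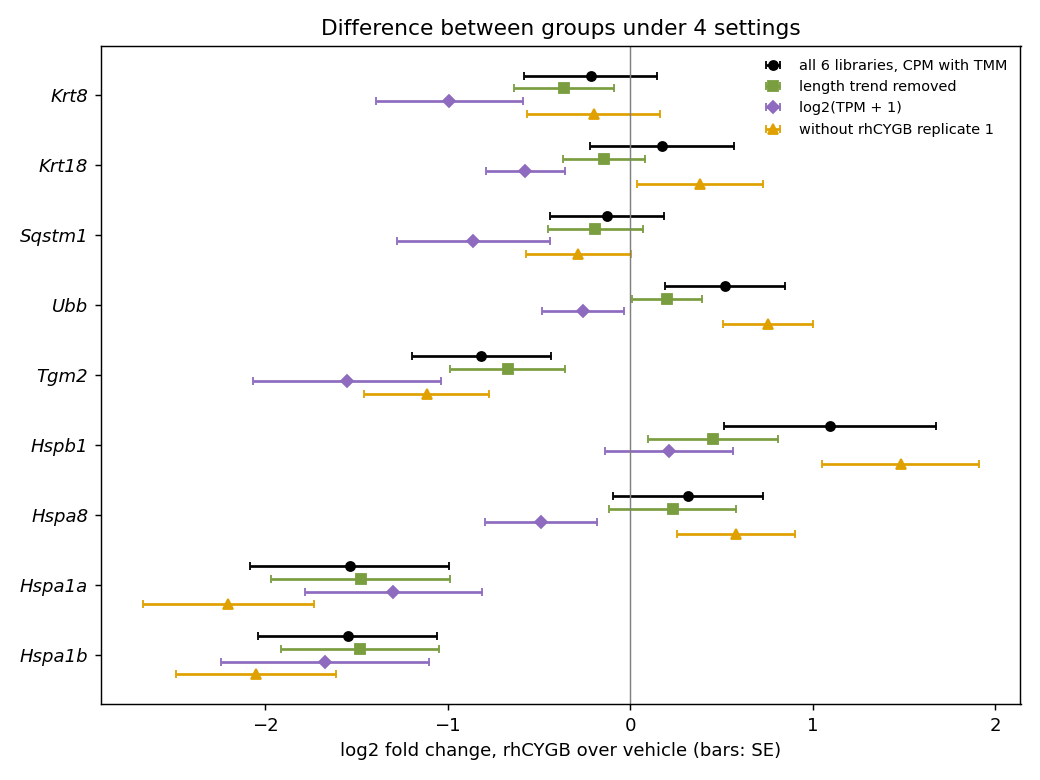
Log2 fold change of rhCYGB over vehicle (horizontal axis, bars are SE) for the 9 genes in 4 settings: all libraries on the CPM scale, the length trend removed, log2(TPM + 1), and rhCYGB replicate 1 left out. Hspa1a and Hspa1b stay between -2.20 and -1.30 in all 4 settings, while Krt18, Ubb and Hspa8 change sign.

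Other genes of the heat shock response were spread around the median of all genes on the CPM scale. Of 20 heat shock factor targets, co-chaperones and factors, 0 passed, and 9 were higher and 11 lower on that scale. The median was -0.06, as for all genes (-0.06). On log2(TPM + 1), 2 were higher and 18 lower, with a median of -0.77, where all genes had -0.51. The most abundant were Hsp90ab1, a constitutive HSP90, at 651 ± 48.9 CPM in rhCYGB livers and 677 ± 33.1 CPM in vehicle livers, the mitochondrial chaperonin Hspd1 at 301 ± 71.2 CPM in rhCYGB livers and 294 ± 26.2 CPM in vehicle livers, and the small heat shock gene Hspb8. Hsp90ab1 and Hspd1 had log2 fold changes of -0.80 and -0.73 on log2(TPM + 1). Hspb8 was at 173, 171 and 309 CPM in rhCYGB livers and at 116, 141 and 128 CPM in vehicle livers. In CPM every rhCYGB liver was above every vehicle liver for Hspb8. The log2 fold change of Hspb8 was 0.76 (SE 0.32, edgeR adjusted p = 0.523), but -0.03 on log2(TPM + 1). The smallest p belonged to Bag1, a partner of HSP70, at 87.8, 291 and 319 CPM in rhCYGB livers and at 63.3, 119 and 115 CPM in vehicle livers (log2 fold change 1.23, SE 0.52, edgeR adjusted p = 0.523, and 0.33 on log2(TPM + 1)). Hsph1, an inducible HSP110 and a partner of HSP70 that was picked out after its values were seen, was at 22.7, 10.4 and 1.89 CPM in rhCYGB livers and at 54.1, 23.4 and 19.7 CPM in vehicle livers. Its groups overlapped and its log2 fold change was -1.47 (SE 0.81, edgeR adjusted p = 0.523).

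**Figure D5:**
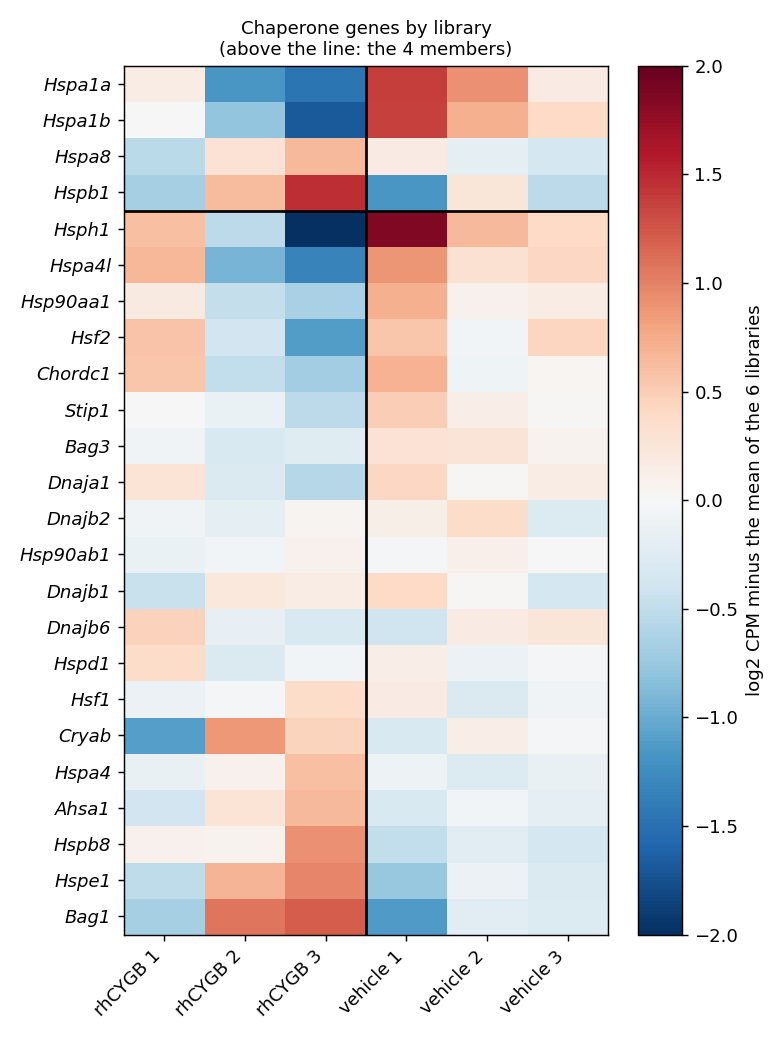
Log2 CPM of 24 chaperone genes in each library minus the gene's mean over the 6 libraries (colour, red higher and blue lower), with rhCYGB libraries left of the line and vehicle libraries right of it. The upper 4 rows are Hspa1a, Hspa1b, Hspa8 and Hspb1, and the rows under the line are the 20 listed genes, from lower to higher with rhCYGB.

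Immediate early genes respond quickly to stress and to handling of tissue, and their values are given beside those of Hspa1a and Hspa1b. Of 12 immediate early genes 11 were lower and 1 higher with rhCYGB, with a median of -0.80, and 0 passed. Their summed level was 309, 251 and 168 CPM in rhCYGB livers and 310, 352 and 373 CPM in vehicle livers, with Jun and Zfp36 highest. Jun, a subunit of AP-1, was at 32.9 ± 18.3 CPM in rhCYGB livers and 59.1 ± 1.17 CPM in vehicle livers, and Zfp36, whose product degrades inflammatory messages, at 34.2 ± 10.2 CPM in rhCYGB livers and 57.6 ± 3.39 CPM in vehicle livers. Their part in the Hspa1a and Hspa1b values was not tested.

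Over the 6 libraries, the genes whose log2 CPM most resembled that of Hspa1a, among 7562 genes of at least 10 CPM, were Hsp90b1 (Pearson r = 0.994, Spearman rho = 1), Hspa5 (r = 0.991, rho = 0.943) and Egln3 (r = 0.984, rho = 0.943). Hsp90b1 and Hspa5 are chaperones of the endoplasmic reticulum. Hspa5 was at 634, 375 and 352 CPM in rhCYGB livers and at 1090, 790.0 and 584 CPM in vehicle livers. For Krt8 the closest were Efemp2 (r = 0.987), Slc7a7 (r = 0.981) and Tax1bp3 (r = 0.977), each with rho = 0.943. For Sqstm1 they were Arap1 (r = 0.973, rho = 0.829), Apon (r = 0.973, rho = 0.886) and Trim26 (r = 0.971, rho = 1). These values share libraries, depth and scaling, rest on 6 points and were taken as the highest of all genes compared, so they describe these libraries only.

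Some of the 9 genes can exchange reads with copies elsewhere. The share of 100-base stretches that also occur in transcripts of other genes in GENCODE M21 was 62.8% for Hspa8, 56.3% for Hspb1, 52.4% for Ubb and 16.9% for Krt8, and 0% for Krt18, Sqstm1 and Tgm2. How the authors counted reads that fit more than 1 place, and whether strand was used, is not given in the sources used here. Annotated genes on the opposite strand overlap Krt8, Tgm2 and Hspa1a, and their reads are split from those of these genes only if strand was used in counting. Hspa8 holds 3 snoRNA genes on its own strand. Exon counts, strands and overlaps were taken from GENCODE M21.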

How the data were processed

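Liver mRNA of 6 mice was sequenced from both ends after a stranded poly(A) library kit, per the labels' protocols. The authors deposited an estimated count and an FPKM value for each gene and transcript. Build mm10 and the tools HISAT2 2.1.0, StringTie 1.3.4d and FastQC 0.11.7 are named in the submitters' processing notes. The deposited counts equal FPKM times transcript length times a constant for each library, so they carry the assembler's estimates, and the replicate spread sets the precision. Coordinates are those of the deposited transcript table. The deposited FPKM were divided by each library's sum to give TPM.

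The test was that of edgeR 4.0.16 under R 4.3.3 (filterByExpr, TMM, robust glmQLFit, glmQLFTest), with Benjamini-Hochberg adjustment over all genes kept and a threshold of 0.05. The SE was obtained by dividing the absolute fold change (log2) by the root of the F statistic. Each ratio was tested by exact permutation of its log2 value. The mouse numbers in the labels pair no animals. Alternatives used DESeq2 1.42.0 and limma 3.58.1.

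The 9 genes and the lists were chosen with earlier results of these data known. All 9 genes are named. From each list the rule names the 3 most abundant genes and the one with the smallest p, from each marker list the 2 most abundant, and for Krt8, Sqstm1 and Hspa1a the 3 genes most correlated. Hsph1 was added outside this rule. Some genes that the rule names are not reported here. For the deposited counts, the strand setting and the annotation release were not given in the sources used here.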

Additional observations from a re-analysis of the deposited data

How the results depend on the processing

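No paired analysis was possible because the labels give the groups no shared replicate numbers. The count of genes past the threshold was 0 in most settings and 65 with DESeq2, 4323 with quality-weighted limma-voom and between 0 and 3391 with 1 library left out, the highest without rhCYGB replicate 1. For transcripts it lay between 0 and 958, the highest again without rhCYGB replicate 1. Krt8, Tgm2, Hspb1, Hspa1a and Hspa1b kept their direction in all 16 alternatives. Krt18 was reversed on log2(TPM + 1) (-0.57), on log2(TPM + 0.1) (-0.58), with the length trend removed (-0.14) and without rhCYGB replicate 2 or vehicle replicate 1 (between -0.027 and 0.38 with 1 library left out). On the same 2 TPM scales Ubb was reversed (-0.26 and -0.26) and so was Hspa8 (-0.49 and -0.49). Relative to the median of all genes on these scales, Ubb was at 0.25 and 0.49 and Hspa8 at 0.02 and 0.26. Sqstm1 was reversed without vehicle replicate 2 (-0.28 to 0.0081 with 1 library left out). The Sqstm1 ratio ran from -0.37 to 0.16 with 1 library left out and was reversed without rhCYGB replicate 2. The Krt8 to Krt18 ratio ran from -0.67 to -0.12 and the HSP70 ratio from -2.67 to -1.25.

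List medians moved by more than the spread between replicates in the following settings. On log2(TPM + 1) and log2(TPM + 0.1) they were -0.77 and -0.80 for heat shock genes, -0.59 and -0.65 for ubiquitin genes, -0.43 and -0.44 for autophagy genes, -0.76 and -0.76 for NRF2 genes, -0.43 and -0.60 for filament genes and -0.96 and -0.98 for transglutaminases, where the medians of all genes were -0.51 and -0.75. With upper-quartile factors (all genes -0.18) they were -0.20 for heat shock, -0.030 for ubiquitin, 0.15 for autophagy and -0.15 for filament genes. With quality-weighted limma-voom they were -0.14 for heat shock genes, 0.14 for autophagy genes and -0.57 for transglutaminases. The filament median was 0.22 with at least 1 CPM in 3 libraries, and the transglutaminase median -0.86 with no filter and -0.76 with DESeq2, where more or fewer genes entered. With 1 library left out, the heat shock median ran from -0.17 to -0.016, the filament median from -0.051 to 0.084 and the transglutaminase median from -0.71 to 0.18. Of 83 list genes tested, 24 (28.9%) passed with quality-weighted limma-voom, where 30% of all genes did, 19 (22.9%) without rhCYGB replicate 1, where 23.2% of all genes did, and 0 in the other settings. The cause of these shifts was not tested.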
